A study of Mus musculus with 2 samples.

Results

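The innate-like T cells described here are 94 barcodes of 11363 kept in 2 single-cell libraries, 30 of 4820 from lymph node and 64 of 6543 from spleen. A barcode is the tag of 1 droplet and stands for 1 cell. Barcodes were kept with 500 or more genes detected and no more than 10% of UMIs from mitochondrial genes. Members were chosen by measured RNA: each had at least 3 unique molecular identifiers (UMIs, each a counted transcript) summed over Zbtb16, Tcrg-C1, Tcrg-C2, Tcrg-C4 and Trav11. It also had 0 UMIs of Foxp3 and of the added feature ICRE, at least 1 UMI of the CD3 genes Cd3e, Cd3d and Cd3g, and fewer than 3 UMIs of the B cell genes Cd79a, Cd79b and Ms4a1. The reference, called the remaining T cells, passed the same gates with fewer than 3 UMIs of those 5 genes, and held 3303 lymph node and 4587 spleen cells.

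Both libraries came from Myc fl/fl Foxp3 Cre/WT mice, by flow sorting of CD4+ CD25+ cells, YFP+ and YFP- alike. Every cell therefore shares the loxP-flanked Myc alleles and 1 Foxp3 allele that carries Cre. Foxp3 is X-linked, so a Cre/WT genotype is that of females, and Cre driven from Foxp3 is made in regulatory T (Treg) cells. The cells selected here were without Foxp3 RNA. The age and number of the animals, any pooling and the YFP status of a barcode are not stated in the labels. With 1 library per tissue there is no replicate, no test was made, and each interval given is an exact 95% interval for counting error only.

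Innate-like T cells leave the thymus already primed and respond quickly, often without classical peptide recognition. PLZF, the zinc finger factor encoded by Zbtb16, directs the effector programme of natural killer T cells, mucosal-associated invariant T cells and some gamma delta T cells, and Trav11 encodes the alpha chain segment of the invariant receptor of mouse natural killer T cells. Gamma delta T cells carry a receptor of gamma chains (Tcrg genes) and delta chains (Trdc), and in peripheral lymphoid tissue they include cells that make interleukin 17. Gamma constant genes can also be transcribed in alpha beta T cells, so their RNA alone does not mark the receptor.

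The selection rests mostly on the gamma constant genes, of which Tcrg-C1 and Tcrg-C2 are close copies and Tcrg-C4 is less alike. On GRCm38 with GENCODE M21, Tcrg-C1 (ENSMUSG00000076749) lies at chr13:19214103-19217024 on the plus strand, Tcrg-C2 (ENSMUSG00000076752) at chr13:19304649-19307551 on the minus strand, and Tcrg-C4 (ENSMUSG00000076757) at chr13:19344558-19352756 on the plus strand. The first 60 bases of the first constant exon are shown 5′ to 3′ in the sense of the gene, as an example of how the genes compare. Capitals mark the 11 positions at which the 3 sequences are not all alike. They were read from chr13:19214103-19214162 for Tcrg-C1, chr13:19307492-19307551 for Tcrg-C2 and chr13:19344558-19344617 for Tcrg-C4.
Tcrg-C1: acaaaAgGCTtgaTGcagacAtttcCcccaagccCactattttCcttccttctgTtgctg
Tcrg-C2: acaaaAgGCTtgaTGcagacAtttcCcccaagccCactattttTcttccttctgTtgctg
Tcrg-C4: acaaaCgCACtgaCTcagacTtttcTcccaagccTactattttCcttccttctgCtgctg
Over the whole first exon of 330 bases, Tcrg-C1 and Tcrg-C2 were 97.3% identical with 9 mismatches. Tcrg-C4 was 82.1% identical to Tcrg-C1 and 81.5% identical to Tcrg-C2. Of all 50-base windows of the Tcrg-C1 transcript, 17.9% also occur in Tcrg-C2 and 0 in Tcrg-C4. Within the last 400 bases, nearer to the end that a 3' kit reads, the shares were 21.9% and 0. The split of counts between Tcrg-C1 and Tcrg-C2 is therefore uncertain, and their sum is the safer measure.

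The genes that chose the members are given as a description. Tcrg-C1 gave 223 UMIs in 76 of the 94 cells, Tcrg-C2 gave 124 UMIs in 50 cells and Tcrg-C4 gave 106 UMIs in 44 cells. Gamma constant RNA was present in all but 3 members, from at least 2 of the 3 genes in 62 cells and from all 3 genes in 17. Zbtb16 (ENSMUSG00000066687, chr9:48654297-48836222, minus strand) gave only 25 UMIs, in 23 members (10 lymph node, 13 spleen). Trav11 (ENSMUSG00000096615, chr14:53519303-53519859, plus strand) gave 32 UMIs in 13 members (7 lymph node, 6 spleen). The members are thus mostly a gamma constant RNA population. Zbtb16 or Trav11 was held by 31 cells (13 lymph node, 18 spleen), of which 28 also held gamma constant RNA, while 63 cells held neither. Of the cells themselves, 63 (17 lymph node, 46 spleen) passed on gamma genes alone, 3 on Zbtb16 and Trav11 without gamma genes, and 28 on both kinds together.

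Receptor RNA divided the members only in part. All 13 Trav11 cells held Trbc RNA, the constant gene of the beta chain, and 0 of 13 held Trdc. Of these 13, 10 also held gamma constant RNA. Trdc (ENSMUSG00000104876, chr14:54142851-54148868, plus strand), the delta constant gene, was found in 22 members, 1 from lymph node with 2 UMIs and 21 from spleen with 126 UMIs. The alpha constant gene Trac was found in 55 of 94 members and Trbc1 or Trbc2 in 90 of 94. Neither Trac nor Trdc was counted in 25 members, and 3 members lacked Trac and Trbc alike. Zbtb16 and Trdc were counted together in 4 cells, and Trac and Trdc in 8. Trbc2 was counted in 20 of the 21 spleen members with Trdc, so Trbc RNA did not set Trav11 cells apart.

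**Figure D1:**
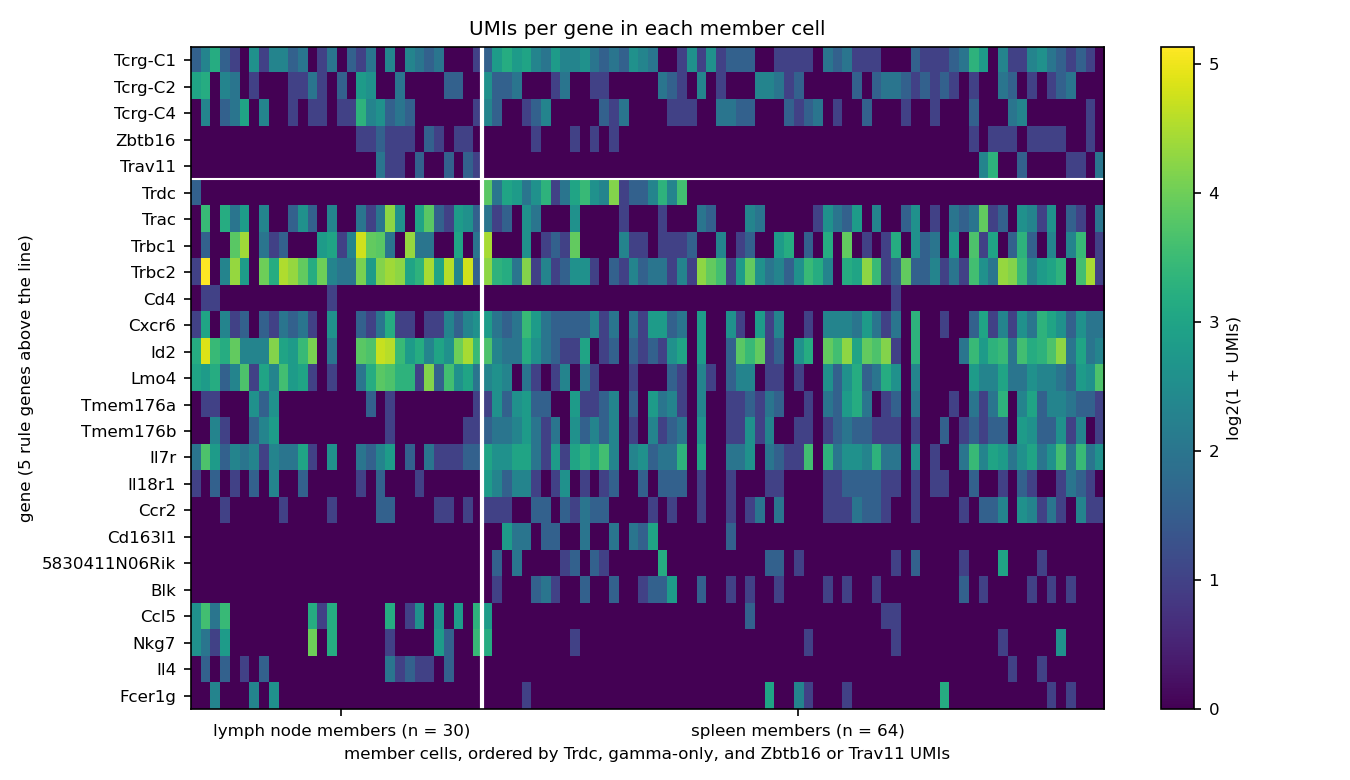
Counts of selected genes in each of the 94 members, 1 column per cell, with lymph node members left and spleen members right, coloured by UMIs per cell. Tcrg-C1 is present in 76 cells across both tissues, Zbtb16 in 23, and Trdc in 1 lymph node and 21 spleen members.

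Members made up 0.622% of kept lymph node barcodes (interval 0.420 to 0.887) and 0.978% of kept spleen barcodes (0.754 to 1.25). The threshold lies within a continuous range of counts: 31 members (7 lymph node, 24 spleen) had exactly 3 rule UMIs and 51 remaining T cells (17 lymph node, 34 spleen) had exactly 2. Just outside it, Cxcr6 was counted in 23.5% of lymph node and 58.8% of spleen cells with 2 rule UMIs. Just inside it, at 3 rule UMIs, the shares were 57.1% and 75.0%. Cells with 0 rule UMIs gave 2.51% in lymph node and 2.03% in spleen. With 1 rule UMI they were 32.8% and 29.2%, so the lymph node share did not climb steadily. Cd4 in spleen was found in 22.4% of cells with 0 rule UMIs, 11.8% with 2, 4.17% with 3 and 0 with 5 or more. In lymph node it was in 24.6% of cells with 0, 5.88% with 2, 14.3% with 3, 0 with 4 and 13.3% with 5 or more, with no such order. The other gates left out 14 barcodes with at least 3 rule UMIs, of which 10 (1 lymph node, 9 spleen) carried Foxp3 or ICRE, 3 lacked CD3 RNA and 1 carried B cell RNA.

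**Figure D2:**
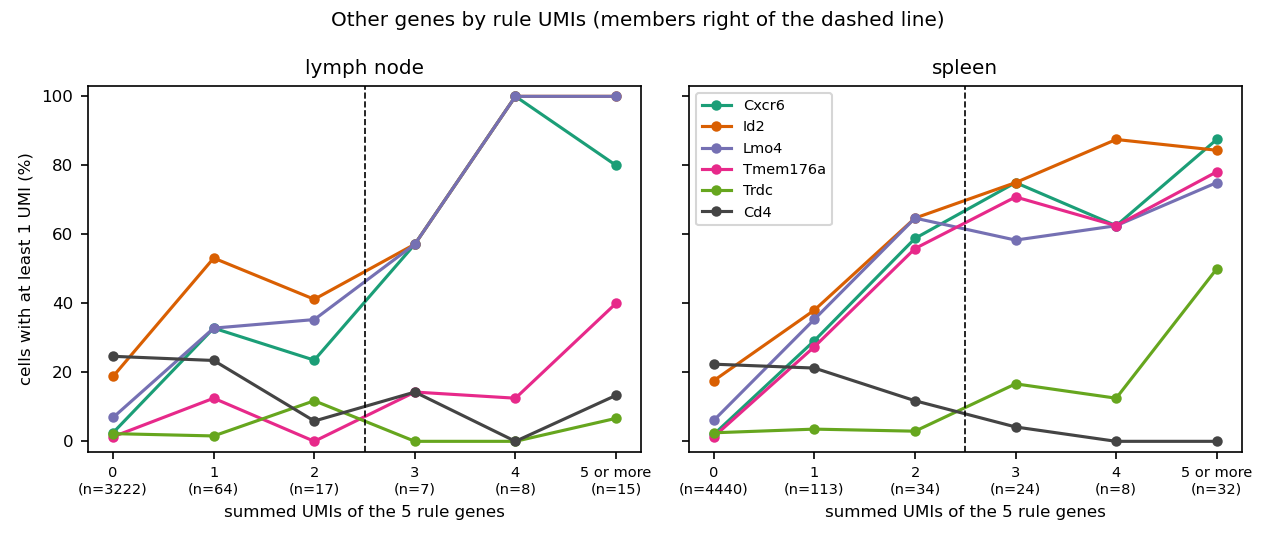
Percent of cells with at least 1 UMI of Cxcr6, Id2, Lmo4, Tmem176a, Trdc or Cd4 against summed UMIs of the 5 rule genes, lymph node left and spleen right. The line between 2 and 3 marks the selection, and the Cxcr6 share is 2.51% and 2.03% at 0 rule UMIs against 57.1% and 75.0% at 3.

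Depth differed between the groups. The deposited libraries held 13324306 UMIs over 5079 lymph node barcodes and 16868549 UMIs over 6840 spleen barcodes. Members had a median of 4397 UMIs per cell in lymph node and 2991 in spleen, against 1875 and 1808 for the remaining T cells. All members together held 134710 (lymph node) and 204600 (spleen) UMIs, so 1 UMI is worth more in members than in the far larger remainder. Mitochondrial genes took a median of 2.98% and 3.17% of UMIs in members, and 2.57% and 2.58% in the remaining T cells. The libraries shared 53 barcode sequences, none of them a member.

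RNA of other cell types was set beside the members, and its part in the results was not tested. The 10 myeloid markers summed to 178 CPM (UMIs per 1000000 of the group) in lymph node members, against 161 CPM in the remaining T cells, with 7 of 10 at 0 in the members. In spleen members they summed to 992 CPM against 170 CPM, while Csf1r, Itgam, S100a8, S100a9 and C1qa were at 0. The B cell list summed to 2197 CPM in lymph node members against 697 CPM in the remaining T cells, and to 464 against 633 CPM in spleen. By the median cell, lymph node members had 322 CPM against 442 CPM, and the highest member reached 33612 CPM. Cd79a, Ms4a1 and Ebf1 were at 0 in the members of both tissues. Natural killer and innate lymphoid markers summed to 230 CPM in lymph node members against 33.1 CPM, and to 200 against 31.4 CPM in spleen, with 5 of 10 at 0 in each.

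Members shared a set of strongly higher genes in both tissues. For CPM, UMIs were summed over the cells of a group, and a gene was called when it averaged at least 50 CPM over both groups and differed at least 2-fold. In lymph node 87 of 2452 genes were higher in members (3.55%) and 154 lower (6.28%), a split that was 255 to 240 on CPM without ribosomal and mitochondrial genes and 402 to 269 after thinning to 1200 UMIs. In spleen 151 of 2551 genes were higher (5.92%) and 130 lower (5.10%). In both libraries alike, 26 of 2221 genes were higher (1.17%) and 49 lower (2.21%).

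Lmo4 (ENSMUSG00000028266, chr3:144188530-144205220, minus strand), a LIM-only transcription cofactor, stood at 1314 CPM in lymph node members against 55.4 CPM in the remaining T cells, a ratio of 23.7 (19.8 to 28.3). Spleen members had 772 CPM against 58.8, a ratio of 13.1 (11 to 15.7). Cxcr6 (ENSMUSG00000048521, chr9:123806475-123811760, plus strand), the chemokine receptor for CXCL16 that many tissue-homing and innate-like T cells carry, was 14.2-fold higher in lymph node members (10.7 to 18.7; 483 against 34.0 CPM) and 25.0-fold higher in spleen members (20.9 to 29.8; 924 against 36.9 CPM). Id2 (ENSMUSG00000020644, chr12:25093799-25097140, minus strand) encodes an inhibitor of E proteins that innate lymphocytes depend on. It was the most abundant of the set, 9.80-fold higher in lymph node members (2212 against 226 CPM) and 10.1-fold higher in spleen members (1711 against 170 CPM). For these 3 genes the intervals of the ratio lie far from 1 in each library. Cxcr6 and Id2, like Tmem176a and Il17rb, were markers given for this group with earlier results of these data known. Their ratios are thus a description of the group and no separate support for it.

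The paired membrane protein genes Tmem176a and Tmem176b differed in size between the tissues. Tmem176a (ENSMUSG00000023367, chr6:48840919-48847071, plus strand) was 12.2-fold higher in lymph node members (134 against 11 CPM) and 28.2-fold higher in spleen members (694 against 24.6 CPM). Tmem176b (ENSMUSG00000029810, chr6:48833818-48841496, minus strand) was 12.6-fold (148 against 11.8 CPM) and 24.1-fold higher (596 against 24.7 CPM). Without the 6 members that had at least 4 Fcer1g UMIs, the lymph node log2 ratios were 2.36 for Tmem176a against 3.61 with them, and 2.45 for Tmem176b against 3.65. The genes overlap on opposite strands at the 5′ end of each, while the libraries are of a 3' kit. No label states the strand used in counting, so any reads in the overlap are uncertain.

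Among receptor genes, Il18r1 and Il7r were higher in both tissues. Of the list of cytokine receptor chains, which holds Il7r but not Il18r1, 1 of 9 was higher and 1 lower in lymph node. In spleen 2 of 8 were higher and 4 lower. The median log2 ratio of that list was -0.22 in lymph node and -0.46 in spleen. Of all genes measured, 3.55% were higher and 6.28% lower in lymph node, and 5.92% and 5.1% in spleen. Il18r1, a chain of the interleukin 18 receptor, was at 119 against 25.0 CPM in lymph node members and the remaining T cells, 4.74-fold, and at 347 against 31.7 CPM in spleen, 10.9-fold. Il7r, the interleukin 7 receptor chain that supports survival, was at 631 against 206 CPM, 3.06-fold, and in spleen at 1339 against 190 CPM, 7.05-fold. Rora, which encodes ROR alpha, a nuclear receptor of type 17 and innate lymphoid cells, was at 148 against 36.7 CPM, 4.04-fold, and in spleen at 220 against 30.1 CPM, 7.30-fold. Il17rb, the receptor chain for interleukin 25, fell below the mean of 50 CPM that a call needs, at 66.8 CPM in lymph node members against 1.81, and at 53.8 CPM in spleen members against 2.93. Each of these ratios was at least as large in spleen as in lymph node, apart from Il17rb.

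The rest of the shared set had mixed functions. Ckb, the brain-type creatine kinase, was 10.1-fold higher in lymph node members (290 against 28.8 CPM) and 9.30-fold higher in spleen members (259 against 27.8 CPM). Fcer1g, a signalling adaptor of Fc receptors and natural killer receptors, was 12.5-fold (96.5 against 7.71 CPM) and 16.6-fold higher (117 against 7.08 CPM). Cd7, a T and natural killer cell surface protein, was 3.62-fold (304 against 84.2 CPM) and 6.19-fold higher (450 against 72.6 CPM). Sptssa, a small subunit of serine palmitoyltransferase, was 4.59-fold (757 against 165 CPM) and 2.89-fold higher (459 against 159 CPM). Lpar6, a lysophosphatidic acid receptor, was 3.75-fold and 4.41-fold higher, and Ramp1, a component of the receptor for the neuropeptide CGRP, was 2.44-fold and 4.34-fold higher. Fcer1g was counted in only 3 of 30 lymph node and 8 of 64 spleen members, and 6 cells held 32 of its 37 UMIs, so its ratios do not describe most members. Cd7 was counted in 15 of 30 and 37 of 64, but 1 lymph node cell held 46.3% of its UMIs there. Without the 6 members that had at least 4 Fcer1g UMIs, its log2 ratio in lymph node was 0.70, below 2-fold, against 1.85 with them.

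**Figure D3:**
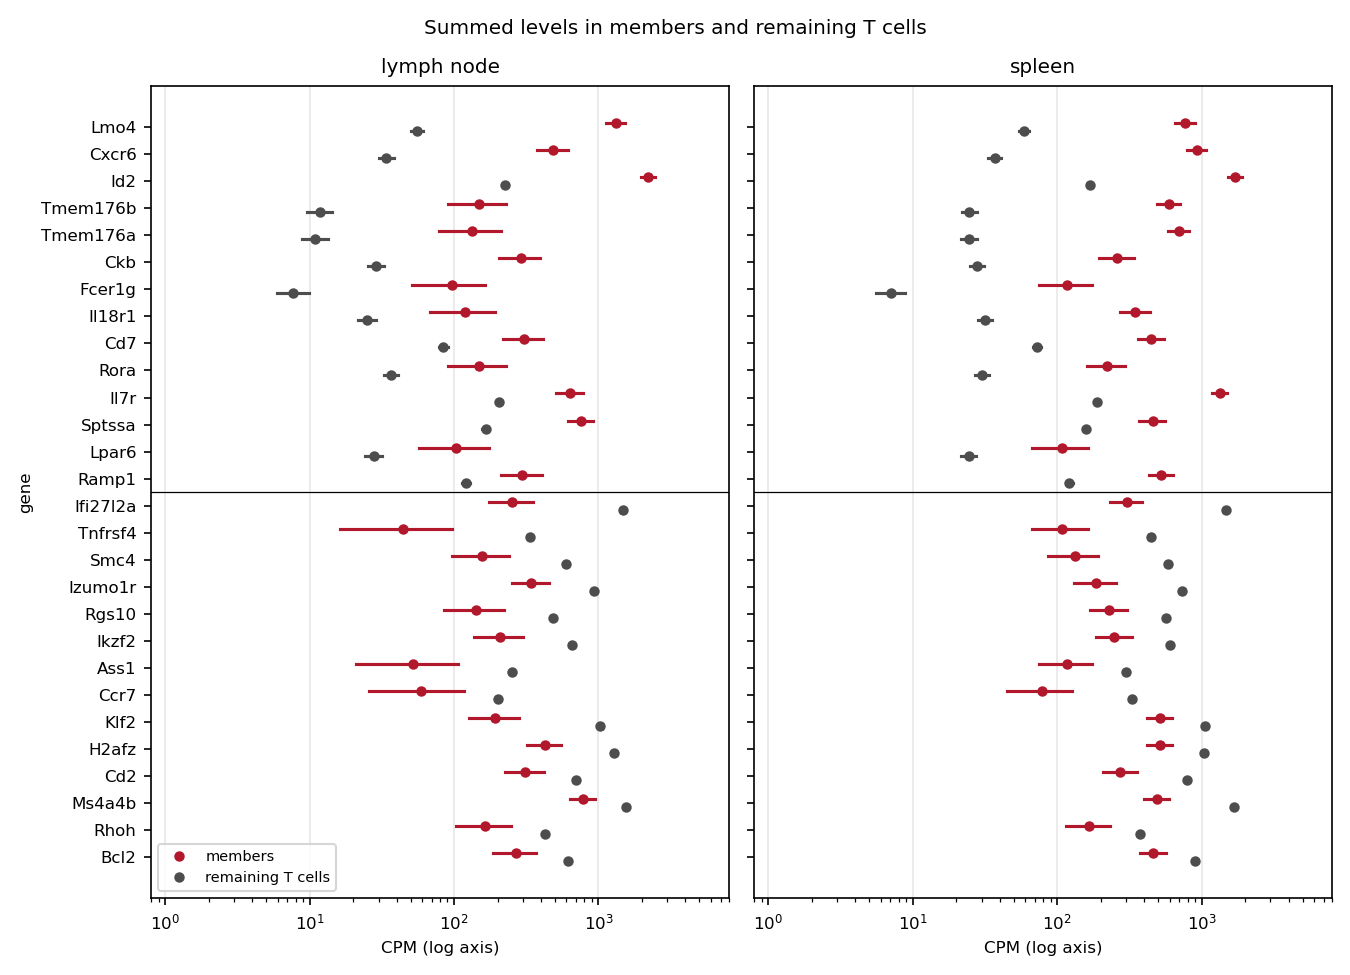
CPM of the named genes in members and in the remaining T cells, on a log axis, lymph node left and spleen right, with bars for the exact 95% Poisson interval. Lmo4, Cxcr6 and Id2 lie at 483 CPM or above in members of both tissues and at 226 CPM or below in the remaining T cells.

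Because depth differed, shares of cells with at least 1 UMI were also taken after drawing 1200 UMIs from every cell (thinning). Too shallow for this were 0 of the lymph node members, 1 of the spleen members, and 204 and 432 of the remaining T cells. Cxcr6 was then found in 26.7% of lymph node and 60.3% of spleen members, against 1.90% and 1.97% of the remaining T cells. Without thinning the shares were 80.0% and 79.7%, against 3.21% and 3.12%. B cells, which should lack the gene, gave 0 of 43 in lymph node and 1 of 46 in spleen at median depths of 2229 and 1995 UMIs. Lmo4 after thinning was in 53.3% and 52.4% of members, against 4.61% and 4.5% of the remaining T cells. Unthinned, Lmo4 was in 90.0% and 67.2% of members against 7.57% and 7.26%, with 9.30% and 0 of B cells. Id2 after thinning was in 76.7% and 66.7% of members, against 12.8% and 12.5%. Tmem176a, by contrast, was in 13.3% of thinned lymph node members and 52.4% of thinned spleen members, against 0.807% and 1.64% of the remaining T cells.

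Genes lower in members in both tissues included several of Treg and resting T cells. The remaining T cells had 0 Foxp3 UMIs, but many held Treg genes. In lymph node Ikzf2 was counted in 54.9% and Izumo1r in 62.8% of them, against 67.7% and 75.9% of cells with Foxp3 or ICRE RNA. The remaining lymph node T cells had a median of 1875 UMIs against 4397 in members, so 0 Foxp3 UMIs says less about the former. The ratios are thus not against cells known to lack Foxp3. Tnfrsf4, which encodes the costimulatory receptor OX40, was at 44.5 CPM in lymph node members against 335 CPM in the remaining T cells, 7.53-fold lower, and at 108 against 448 CPM in spleen, 4.17-fold lower. Ikzf2, which encodes Helios, a factor of Treg cells, was 3.14-fold lower (208 against 653 CPM) and 2.42-fold lower (249 against 603 CPM). Izumo1r, the folate receptor 4 gene of Treg and anergic cells, was 2.73-fold (341 against 932 CPM) and 3.92-fold lower (186 against 729 CPM). The chemokine receptor gene Ccr7, which guides naive cells to lymph nodes, was 3.38-fold (59.4 against 201 CPM) and 4.22-fold lower (78.2 against 330 CPM). The interferon-inducible gene Ifi27l2a was 5.88-fold (252 against 1483 CPM) and 4.87-fold lower (303 against 1476 CPM), and Smc4, a condensin subunit, 3.82-fold and 4.46-fold lower. Rgs10, Ass1, H2afz, Cd2 and Rhoh were between 2.03-fold and 4.85-fold lower in each tissue. The call of Cd2 in lymph node ended at 2 or more rule UMIs, with a log2 ratio of -0.88 against -1.16, and was -0.86 with the remaining T cells weighted to the depth of the members.

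A few lower genes depended on depth or on single settings. Klf2, a quiescence factor that sustains expression of homing receptors, was 5.28-fold lower in lymph node members (193 against 1018 CPM) and 2.07-fold lower in spleen members (513 against 1061 CPM). With the remaining T cells weighted to the depth of the members, its log2 ratio in spleen was -0.50, below 2-fold. Bcl2, the survival factor, was 2.31-fold lower in lymph node and 1.95-fold in spleen. Its log2 ratio in lymph node was -0.29 with that weighting, against -1.21 without. Ms4a4b, a membrane protein of T cells, was 3.41-fold lower in spleen and 1.98-fold in lymph node.

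Members were described by lists of known genes, in which the filter on low values matters: many members of a list passed 50 CPM only through the group in which they were high. In the type 17 list of 18 genes, 5 were measured in lymph node and 4 were higher, with a median log2 ratio of 2.02. In spleen all 12 measured were higher, with a median of 3.54. Of those, 3 of 5 and 11 of 12 passed the filter only through the members, so the counts do not stand for the whole list. Over all genes measured, the median was -0.00 for lymph node and 0.03 for spleen. The shares of all genes called were 3.55% higher and 6.28% lower in lymph node, and 5.92% and 5.1% in spleen. Of the type 1 list, Ccl5 and Nkg7 were higher among 3 measured in lymph node, and Klrk1 among 2 in spleen. Of the type 2 list, Il4 was higher among 3 in lymph node and Icos, 2.52-fold, among 2 in spleen. In lymph node 1 of these 3 type 2 genes, and in spleen 1 of the 2 type 1 genes, passed the filter only through the members. The Nkg7 call ended at 5 or more rule UMIs, with a log2 ratio of 0.84 against 1.82, and that of Icos without the Foxp3 and ICRE gate, at 0.83 against 1.33. In the Treg list of 11 genes, 6 of 8 measured in lymph node and 7 of 9 in spleen were lower and 0 higher, with medians of -1.55 and -1.97. Ctla4, the inhibitory receptor, had 44.5 CPM in lymph node members against 164, and 19.6 CPM in spleen members against 178. In the resting T cell list of 12 genes, 5 of 9 and 7 of 10 were lower, and 1 was higher in each, Il7r. In these last lists 3 of 8 and 2 of 9 Treg genes, and 1 of 9 and 3 of 10 resting T cell genes, passed the filter only through the remaining T cells.

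Of the immediate early and receptor response list, 2 genes were higher (Fos and Ppp1r15a) and 1 lower (Jun) of 11 in lymph node, and 1 was higher (Fos) and 2 lower (Dusp2 and Cd69) of 11 in spleen. Of all genes measured, 3.55% were higher and 6.28% lower in lymph node, and 5.92% and 5.10% in spleen. Of 4 cycling genes measured in each tissue, 1 was lower, Stmn1, a microtubule regulator of dividing cells. It had 0 UMIs in lymph node members against 1207 in the remaining T cells, at least 6.53-fold lower by a floor of 3 UMIs over the members, and in spleen it stood at 24.4 against 101 CPM. Without the 6% of barcodes with the most UMIs, its log2 ratio was -0.00 in lymph node, against the floor, and -0.41 in spleen. The proliferation marker Mki67 was at 0 in members of both tissues. The floxed gene Myc gave 4 UMIs over all lymph node members and 5 over all spleen members. Lymph node members thus had 29.7 CPM against 28.7 in their remaining T cells, and spleen members 24.4 CPM against 35.7. The intervals of the ratio ran from 0.28 to 2.69 and from 0.221 to 1.61, so a difference in Myc was not detectable at this depth.

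The sort was for CD4+ CD25+ cells, and the members held little Cd4 RNA. Cd4 was counted in 4 of 94 members, 3 lymph node cells (10.0%) and 1 spleen cell (1.56%), against 24.5% and 22.3% of the remaining T cells. After thinning it was in 0 of 30 and 1 of 63 members, against 14.0% and 13.1%. Cd8a had 0 UMIs in members. Il2ra, which encodes CD25, was found in 25 of 94 members, at 33.3% in lymph node and 23.4% in spleen, against 23.5% and 28.0% of the remaining T cells. After thinning these shares were 10.0% and 11.1%, against 14.6% and 18.8%, and B cells gave 1 of 43 and 1 of 46 unthinned. Its level reached 111 CPM in lymph node members against 126, and 78.2 CPM in spleen members against 175, 2.24-fold lower. Trac reached 817 CPM in lymph node members against 1004, and 528 CPM in spleen members against 1064, 2.02-fold lower. Trbc2 was at 2606 against 3091 CPM and at 1940 against 3017 CPM, below 2-fold in each.

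Promoters of a few genes that set members or their Trdc subset apart are shown from RefSeq on GRCm38.p6, 5′ to 3′ in the sense of the gene and ending before the annotated first exon. The windows are chr9:123806227-123806474 for Cxcr6, chr7:140218017-140218266 for Cd163l1 and chr7:140247051-140247283 for 5830411N06Rik, all on the plus strand. Capitals mark matches, on either strand, to AGGTCA, which reads TGACCT on the other strand, the core element bound by ROR alpha, or to TGTGGT, which reads ACCACA on the other strand, the core element of RUNX factors.
Cxcr6: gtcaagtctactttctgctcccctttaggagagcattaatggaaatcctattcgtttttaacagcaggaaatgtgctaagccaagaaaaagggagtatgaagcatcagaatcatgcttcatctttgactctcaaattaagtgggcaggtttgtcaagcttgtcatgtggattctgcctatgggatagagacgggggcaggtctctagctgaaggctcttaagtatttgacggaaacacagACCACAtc
Cd163l1: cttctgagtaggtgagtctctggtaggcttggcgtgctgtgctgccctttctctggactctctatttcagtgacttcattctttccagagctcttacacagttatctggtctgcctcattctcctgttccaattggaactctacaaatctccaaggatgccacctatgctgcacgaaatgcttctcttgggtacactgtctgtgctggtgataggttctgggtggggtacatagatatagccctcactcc
5830411N06Rik: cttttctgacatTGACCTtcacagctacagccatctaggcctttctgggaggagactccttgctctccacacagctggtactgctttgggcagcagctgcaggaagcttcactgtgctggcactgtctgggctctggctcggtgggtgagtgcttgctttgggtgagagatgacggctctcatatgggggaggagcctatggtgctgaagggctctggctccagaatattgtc
AGGTCA occurred in 4607 of 32851 windows of 250 bases before a start in the RefSeq table (14.0%) and TGTGGT in 4614 (14.0%). Of the 14 genes named as higher in both tissues, 13 had a window, 0 with AGGTCA and 1, Cxcr6, with TGTGGT. The letters are a description of these windows and not of binding.

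Within spleen, the 21 members with Trdc RNA were set beside the other 43, a comparison chosen after seeing the data. Median depth was 2639 UMIs in the Trdc members and 3068 UMIs in the others. Of 2677 genes, 237 were higher (8.85%) and 208 lower (7.77%), and the median log2 ratio over all was 0.06. Cd163l1 (ENSMUSG00000025461, chr7:140218267-140231145, plus strand), a scavenger receptor family gene of gamma delta cells, had the clearest difference, at 489 CPM in Trdc members against 14.8 CPM in the others, 33.0-fold. It was counted in 10 of 21 Trdc cells and 1 of 43 others. Its neighbour and relative 5830411N06Rik (ENSMUSG00000054672, chr7:140247284-140300736, plus strand) was at 273 against 126 CPM, 2.17-fold.

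Signalling genes were among those higher in Trdc members. Ifngr1, the interferon gamma receptor chain, was at 848 against 230 CPM, 3.70-fold. Blk, a Src family kinase of B cells and type 17 gamma delta cells, was at 316 against 104 CPM, 3.05-fold, and Il18r1 at 561 against 237 CPM, 2.37-fold. Klrk1, which encodes the receptor NKG2D, was at 244 against 44.4 CPM, 5.50-fold, and Cd247, the CD3 zeta chain, at 374 against 118 CPM, 3.16-fold. After thinning, Klrk1 and Cd247 fell short of 2-fold, with log2 ratios of 0.42 and 0.81 against 2.46 and 1.66 unthinned. The cytoskeletal genes Myh9 and Diaph1 were each at 244 against 59.2 CPM, and the kinase gene Wnk1 at 273 against 74.0 CPM.

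Lower in Trdc members were Lmo4, at 431 against 948 CPM or 2.20-fold, and Id2, at 1007 against 2073 CPM or 2.06-fold. Icos, a costimulatory receptor, was 4.63-fold lower (101 against 466 CPM). Fcer1g had 1 UMI in the Trdc members against 23 in the others. Zbp1, a sensor of left-handed nucleic acids, had 0 UMIs against 20, at least 3.43-fold lower by the floor, and after thinning its log2 ratio was -0.58. The interferon-inducible transcript AW112010 was at 431 against 918 CPM, 2.13-fold lower, and Trac at 302 against 644 CPM, 2.13-fold lower. Trac was counted in 8 of 21 Trdc members and 26 of 43 others.

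Of the 13 type 17 list genes measured in this comparison, 2 were higher in Trdc members and 0 lower, against 8.85% and 7.77% of all genes. Actn2, an alpha-actinin gene, was at 273 against 111 CPM, 2.46-fold (1.18 to 5.2), and Il17re at 187 against 81.4 CPM, 2.30-fold with an interval that includes 1 (0.949 to 5.66). Several genes higher in all spleen members stayed within 2-fold between the Trdc members and the others. Cxcr6 stood at 1007 CPM in Trdc members and 881 CPM in the others, a ratio of 1.14 (0.838 to 1.55). Tmem176a stood at 762 against 659 CPM, Il7r at 1524 against 1244 CPM, and Maf, a factor of type 17 cells, at 273 against 244 CPM. Ccr6, a chemokine receptor of type 17 cells, stood at 302 against 200 CPM. The interval for Cxcr6 also lies within 2-fold.

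**Figure D4:**
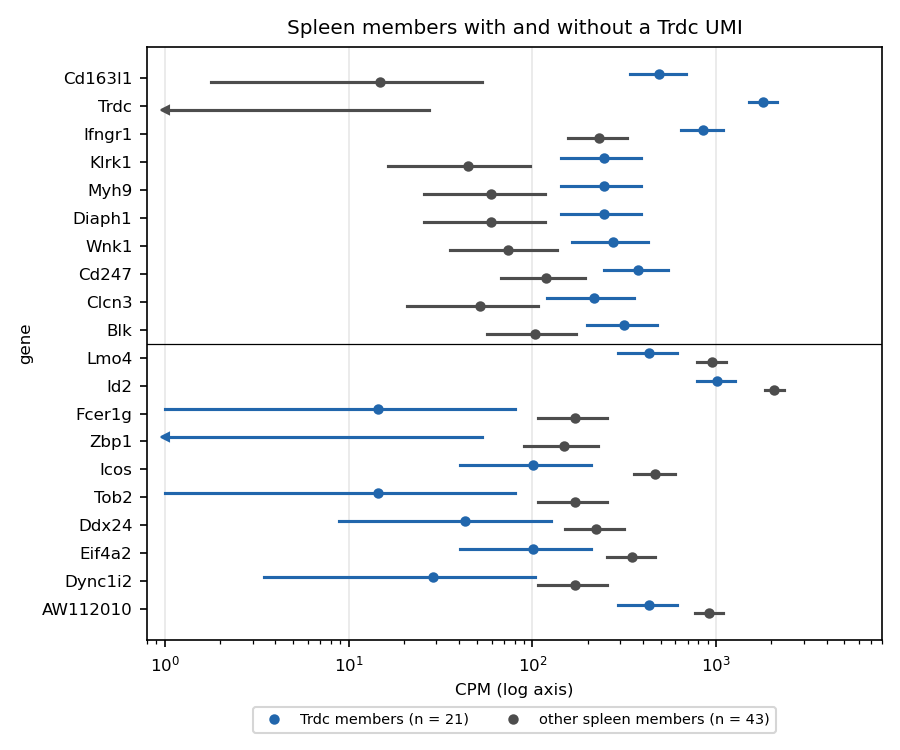
CPM of named genes in the 21 spleen members with Trdc RNA and in the other 43, on a log axis, with exact 95% Poisson intervals; arrows mark groups with 0 UMIs. Cd163l1 lies at 489 against 14.8 CPM, while Icos lies at 101 against 466 CPM.

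The 63 members with gamma constant RNA and no Zbtb16 or Trav11 were set beside the 31 with Zbtb16 or Trav11, over both libraries, also chosen after seeing the data. Of 2536 genes, 142 were higher (5.60%) and 99 lower (3.90%), a split that was 251 to 299 on CPM without ribosomal and mitochondrial genes. Fcer1g was at 172 CPM in gamma-only members against 14.7 CPM (2 UMIs) in Zbtb16 or Trav11 members, and 32 of its 35 gamma-only UMIs came from 6 cells. Cd163l1 was at 162 against 22.0 CPM, and Il2ra at 128 against 36.7 CPM, 3.48-fold. Klf2 was 3.51-fold higher (541 against 154 CPM), Bcl2 2.70-fold higher (517 against 191 CPM), and Rgs1, a regulator of G protein signalling, 4.20-fold higher (340 against 80.8 CPM). Among the lower genes, Rnf138 was 3.84-fold, Pet100 3.11-fold and Fbxw2 3.55-fold lower. Markers of other cell types were higher in the gamma-only members. In the B cell list these were 4 of 5 measured genes (Cd74, H2-Aa, H2-Ab1 and H2-Eb1), with a median log2 ratio of 3.62. In the myeloid list they were Lyz2 and Tyrobp of 3. The 6 cells with at least 4 Fcer1g UMIs, all gamma-only, held 124 Cd74, 53 H2-Aa and 40 H2-Ab1 UMIs. All lymph node members together held 126, 54 and 40, and all spleen members 29, 4 and 2. In spleen alone 1 of 4 measured B cell genes was higher, Cd79b, with 0 intervals above 1. Cd74 stood at 723 against 58.8 CPM and Lyz2 at 531 against 162 CPM, and their part in the other differences was not tested. Of the gamma-only members 46 of 63 were from spleen, against 18 of 31 of the Zbtb16 or Trav11 members, so tissue moves with this split too. Depth also differed: the shallowest gamma-only member had 1169 UMIs and the shallowest Zbtb16 or Trav11 member 2218. Zbtb16 gave at most 2 UMIs in a cell, so a count of 0 says less in shallow cells. The part of depth in these differences was not tested.

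Of the 14 genes named as higher in all members, Fcer1g, Il18r1 (2.24-fold) and Cd7 (2.03-fold) were higher in gamma-only members, and the others were within 2-fold. Cxcr6 was at 733 against 771 CPM, Id2 at 1811 against 2057 CPM, Tmem176a at 482 against 456 CPM and Lmo4 at 812 against 1249 CPM. Trdc was at 463 against 250 CPM and Trac at 507 against 845 CPM. None of these ratios was past 2-fold in either direction.

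Lymph node and spleen members differed in the effector genes they held. Of 2532 genes, 135 were higher in lymph node members than in spleen members (5.33%) and 215 lower (8.49%), with a median log2 ratio of -0.03. CPM without ribosomal and mitochondrial genes raised every log2 ratio of this comparison by 0.11. The library, the animal and the tissue cannot be told apart. The chemokine gene Ccl5 stood at 594 CPM in lymph node members against 48.9 CPM in spleen members, 12.2-fold, in 13 of 30 against 4 of 64 cells. Nkg7, a cytotoxic granule protein gene, stood at 423 against 83.1 CPM, 5.09-fold. Cd160, a receptor of cytotoxic cells, stood at 275 against 19.6 CPM, 14.0-fold, in 16 of 30 against 4 of 64 cells. Il4, the type 2 cytokine made rapidly by natural killer T cells, stood at 126 against 9.78 CPM, in 10 of 30 against 2 of 64 cells. The interleukin 2 receptor beta chain gene Il2rb was 3.24-fold higher (238 against 73.3 CPM), and the GTPase genes Gimap3 and Gimap4 were 7.83-fold and 6.41-fold higher.

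Against the remaining lymph node T cells, Il2rb, Gimap3 and Gimap4 were not higher in members, with ratios of 0.869, 0.881 and 0.982, while Ccl5, Il4 and Cd160 were. Ccl5 was 5.33-fold higher in lymph node members (594 against 111 CPM) and stood at 48.9 against 42.7 CPM in spleen. Il4 was 32.7-fold higher in lymph node (17.1 to 60.8; 126 against 3.85 CPM), with 2 UMIs in spleen members and 2 in the spleen remainder. Cd160 was 11.4-fold higher in lymph node members (275 against 24.1 CPM). The difference of these ratios between the tissues was not tested.

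Spleen members held type 17 RNA. Of the 13 type 17 list genes measured, 11 were lower in lymph node than in spleen members, against 8.49% of all genes, and 8 of 13 passed the filter on low values only through the spleen members. Of 4 type 1 genes, Ccl5, Nkg7 and Cxcr3 were higher, against 5.33% of all genes, and Klrk1 was lower, while 2 of 4 passed only through the lymph node members. Ccr6 gave 1 UMI in lymph node members against 48 in spleen members. Serpinb1a, a protease inhibitor gene of type 17 gamma delta cells, gave 2 against 54 UMIs. Blk, Cd163l1 and 5830411N06Rik each gave 0 against 36 UMIs, at least 7.90-fold lower, and Trdc was at 14.8 against 616 CPM. Tmem176a was 5.19-fold lower in lymph node members, Maf 3.80-fold, Ccr2 4.54-fold and Il18r1 2.92-fold. Il17a itself had 0 UMIs in lymph node members and 2 in spleen members, and Il17f had 0 in each.

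Several of these genes were also far higher in spleen members than in the remaining spleen T cells. Trdc stood at 616 CPM in spleen members against 16.3 CPM, 37.7-fold (29.7 to 47.7). Cd163l1 stood at 176 against 0.472 CPM, 373-fold (146 to 1217), a ratio whose interval spans nearly 1 order of magnitude because the remainder held so few counts. Il17re, a receptor chain for interleukin 17C, was 31.9-fold higher (117 against 3.68 CPM) and Ccr6 8.40-fold higher (235 against 27.9 CPM). Trdc was also counted in 2.27% of lymph node and 2.51% of spleen remaining T cells, and in 0 of 43 and 0 of 46 B cells. Cells with 3 or more Trdc UMIs were not confined to the members. In spleen they were 17 of 64 members, 14 of 4587 remaining T cells and 4 of 1710 cells with Foxp3 or ICRE RNA. In lymph node they were 0 of 30, 5 of 3303 and 1 of 1330.

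Calcium-binding and galectin genes followed the same tissue order. S100a6 stood at 171 CPM in lymph node members against 2405 CPM in spleen members, 14.1-fold lower, in 14 of 30 against 53 of 64 cells. S100a4 was 11.3-fold lower (126 against 1422 CPM) and Lgals1, which encodes galectin 1, 12.2-fold lower (156 against 1906 CPM). Lgals3 gave 1 UMI against 68. Lyz2, the lysozyme gene of myeloid cells, gave 0 against 130 UMIs, at least 28.5-fold lower, and Apoe 0 against 53 UMIs, at least 11.6-fold lower. The Lyz2 UMIs came from 14 of 64 spleen members, with 33.8% in 1 cell, and their part in the other differences was not tested. Lmo4, Id2 and Cxcr6 did not reach 2-fold between the tissues, with ratios of 1.70, 1.29 and 0.522.

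Antigen presentation RNA in lymph node members came largely from 1 cell. Cd74 stood at 935 CPM in lymph node members against 142 CPM in spleen members, and H2-Aa at 401 against 19.6 CPM. The lymph node cell with the most held 81.0% of the Cd74 UMIs, and likewise 59.3% of the H2-Aa UMIs. Without the 6 members that had at least 4 Fcer1g UMIs, the log2 ratios were -3.18 for Cd74 and -1.32 for H2-Aa, the opposite sign. Those 6 cells held 124 of the 126 Cd74 UMIs and 53 of the 54 H2-Aa UMIs of lymph node members. Spleen members held 29 and 4, so the ratios without the 6 cells rest on very few UMIs and their direction is uncertain. Each of these 6 cells (3 lymph node, 3 spleen) held 1 CD3 UMI, 0 Cd3e, Trac, Trdc, Zbtb16 and Trav11 UMIs, and Tmem176b RNA in 6 of 6. Their CD3 count is the lowest that the rule allows. Id2 and Il7r were each counted in 5 of the 6 cells, Tyrobp in 4, and Trbc1 or Trbc2 in 4. The lymph node log2 ratio of Il18r1 without them was 1.36, against 2.25 with them.

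**Figure D5:**
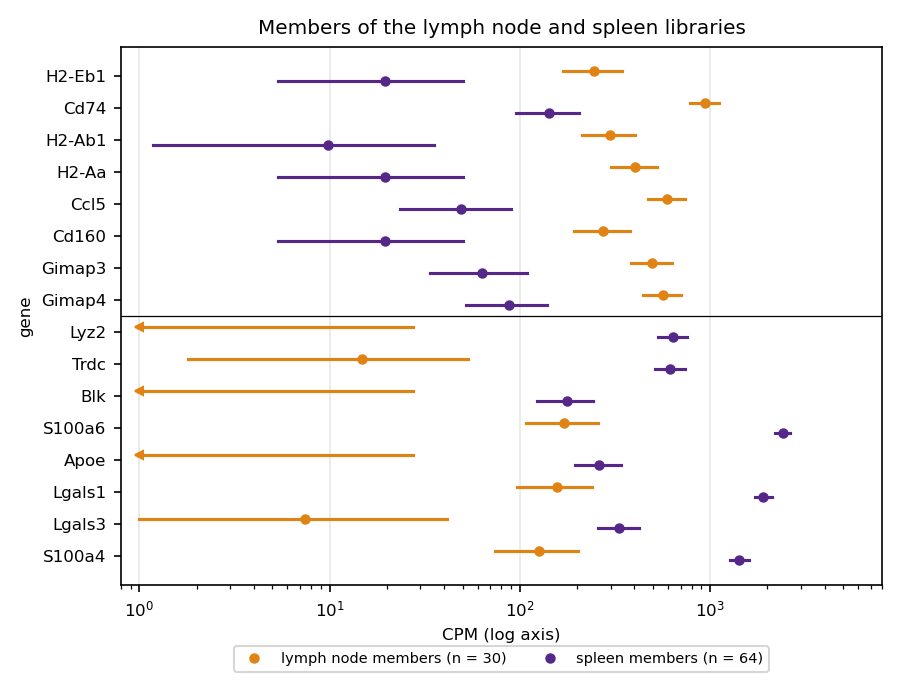
CPM of named genes in lymph node members and in spleen members, on a log axis, with exact 95% Poisson intervals; arrows mark groups with 0 UMIs. Ccl5 lies at 594 against 48.9 CPM, and S100a6 at 171 against 2405 CPM.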

How the data were processed

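The data are 1 lymph node and 1 spleen library of the 10x 3' V2 kit. The values are raw UMI counts deposited by the authors, with Cell Ranger 3.0.1 and mm10 named in the submitters' processing notes. The gene table lists 31056 features, of which 3 were added; 30934 Ensembl genes matched GENCODE M21. The members and gene lists were chosen with earlier results of these data known.

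Counts were filtered as described, summed per group and scaled to CPM over all features. A gene needed a mean of 50 CPM over both groups and a 2-fold ratio to be called. Intervals are exact Poisson, Clopper-Pearson and exact conditional (Python 3.11.15, numpy 2.4.6, scipy 1.17.1, pandas 2.3.3, matplotlib 3.10.9) at 95%. A group at 0 was set to a floor of 3 UMIs over that group. No doublet caller was used; an alternative left out the 6% of barcodes with the most UMIs in each library. Calculations were tested on simulated data.

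Against the remaining T cells, named genes needed at least 20 member UMIs. They were the 14 higher and 14 lower whose interval bound nearest 1 lay farthest from it in the less extreme library. Between tissues 8 on each side were named by that bound, up to 5 per list by size of ratio, and the rule genes, markers, Myc, Il2ra and receptor genes always. Other genes given were chosen after their values were seen. A planned comparison of cells passing on gamma genes with cells passing on Zbtb16 and Trav11 was not made, because the second held 3 cells; the comparison by Zbtb16 or Trav11 RNA replaced it. Some genes that the naming rule gives are not reported here.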

Additional observations from a re-analysis of the deposited data

Results flagged for a closer look

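Lgals1 and S100a6 stood on opposite sides of the remaining T cells in the 2 tissues. Lgals1 in members was at 0.243 times its level in the remaining lymph node T cells (0.150 to 0.372) and at 3.20 times its level in the remaining spleen T cells (2.88 to 3.54). S100a6 was at 0.580 times in lymph node (0.367 to 0.872) and 8.35 times in spleen (7.58 to 9.19). With 1 library per tissue, the difference between the tissues was not tested.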

How the results depend on the processing

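Of 3333 values for 200 gene results under 19 settings, 3109 stayed within the counting interval of the main value. Another 220 moved beyond it and 4 reversed. Reversal was checked only for ratios called at 2-fold, so a smaller ratio could change sign and count among the others. The reversed log2 ratios were -3.02 for Cd74 (lymph node members over the remaining T cells), -3.18 for Cd74 and -1.32 for H2-Aa (lymph node over spleen members), each without the 6 Fcer1g cells, and -0.86 for Lyz2 (gamma-only over Zbtb16 or Trav11 members) at 5 or more rule UMIs. Without the 6 Fcer1g cells, very few Cd74 and H2-Aa UMIs were left in lymph node members, so those 3 reversals are uncertain. The cause was not tested. The member share was 0.975% and 1.5% (lymph node, spleen) at 2 or more rule UMIs, and 0.311% and 0.489% at 5 or more. It was 0.219% and 0.382% when the rule was applied after thinning. Without the gamma constant genes it was 0.0415% and 0.0459%, and without Zbtb16 and Trav11 it was 0.519% and 0.917%.

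Counts of called genes moved more than the genes named. In the order higher and lower, thinning to 1200 UMIs gave 402 and 269 in lymph node members over the remaining T cells, 255 higher in spleen, 438 and 421 between tissues, 653 and 436 for Trdc members and 363 and 515 for gamma-only members. CPM without ribosomal and mitochondrial genes gave 255 and 240, 266 and 215, 332 and 367, 414 and 396, and 251 and 299 in the same order. A mean of 20 CPM gave 370 and 497, 452 and 351, 493 and 678, 603 and 783, and 654 and 392. A minimum of 3 UMIs gave 1284 and 903, 1702 and 841, 1005 and 996, 804 and 783, and 1181 and 950. At 5 or more rule UMIs, 185 were higher in lymph node, 219 between tissues, 440 higher and 320 lower for Trdc members, and 237 and 203 for gamma-only members. At 2 or more, 80 were higher for gamma-only members. Without the 6% of barcodes with the most UMIs, 147 were higher in lymph node, 213 between tissues and 399 for Trdc members, and 164 lower for gamma-only members. The counts rest on 94 cells, and why they moved was not tested. No paired analysis was possible because each tissue has 1 library.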

Other observations

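Among the members, 12 (3 lymph node, 9 spleen) held 0 UMIs of Cxcr6, Id2, Tmem176a and Il17rb. They are described without a test, since the cells were chosen after their values were seen. Klf2 stood at 1645 CPM in these 12 cells against 270 CPM in the other 82 members, and Ccr7 at 455 against 35.4 CPM. Izumo1r stood at 840 against 193 CPM, Il2ra at 350 against 67.6 CPM and Cd2 at 1085 against 216 CPM. Tcf7, a factor of resting T cells, went the other way, at 70.0 against 174 CPM. Lmo4 was counted in 1 of 12 against 69 of 82 cells, and Il7r in 2 of 12 against 77 of 82. Ctla4 was counted in 4 of 12 against 3 of 82. All 12 lacked Zbtb16 and Trav11, and their median of rule UMIs was 3 against 5. Their median depth was 1866 against 3606 UMIs, and its part in these differences was not tested.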
